A study of Homo sapiens with 11 samples.

Results

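The data described here are 6 of the 11 RNA-seq libraries of a series on HEC50B, an endometrial cancer cell line: 3 from WT WM1119 cells and 3 from R183W vehicle cells, chosen by genotype and treatment alone. In WT WM1119 cells the R183W substitution of PPP2R1A had been corrected to wild type (WT) with CRISPR, and the cells were kept for 4 days in 50 µM WM1119, an inhibitor of the acetyltransferase KAT6A. In R183W vehicle cells the parental substitution was kept and the inhibitor was replaced by its vehicle for the same 4 days. The remaining libraries, 2 from R183W WM1119 cells and 3 from WT vehicle cells, carry the other combinations of genotype and treatment. The comparison asks how far inhibited corrected cells resemble untreated mutant cells and where they stay apart. Genotype and inhibitor change together between the groups compared, so their parts in a difference cannot be told apart within this comparison. The labels say neither whether the corrected line is 1 clone nor whether replicates are separate cultures. P-values thus set each difference between groups against the spread among these libraries, and that spread could be technical.

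PPP2R1A encodes the main scaffold subunit of PP2A, a serine/threonine phosphatase, and holds its catalytic subunit and an interchangeable regulatory subunit together. R183W is a recurrent substitution in serous-type endometrial cancer and lies where regulatory subunits dock. KAT6A is a MYST-family lysine acetyltransferase that works in a complex with a BRPF scaffold, ING5 and MEAF6, acetylates histone H3 and is known for supporting proliferation and opposing senescence. WM1119 competes with acetyl-CoA for its active site.

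WT WM1119 libraries held 4511680, 3932391 and 2609922 counts, and R183W vehicle libraries held 6065149, 4576026 and 4805210 counts. Each of these groups has n = 3 libraries. Levels are given as CPM, the counts of a gene per 1000000 counts of its library after TMM scaling, for libraries 1, 2 and 3 in that order. WT WM1119 library 3 was the shallowest of the 11 and stood apart from its own group. Its root mean square difference in log2 CPM from the other WT WM1119 libraries was 0.857 and 0.981, whereas those libraries differed from each other by 0.591. In it 385 of the 13980 genes tested had no count, against 140 and 172 in WT WM1119 libraries 1 and 2. A count of 0 allows up to 1.24 CPM there and up to 0.495 CPM in R183W vehicle library 1, taking 3 counts as the limit and covering counting error only. Most results are therefore also given without that library. The labelled cell type was checked against marker lists. Epithelial markers summed to between 1200 and 1550 CPM in WT WM1119 libraries and between 1660 and 1860 CPM in R183W vehicle libraries, and 6 of 8 were tested. Endometrial epithelial markers summed to between 516 and 621 CPM in WT WM1119 libraries and between 564 and 637 CPM in R183W vehicle libraries, but 2 of 7 had no count in any library. The stromal list summed to between 945 and 1080 CPM in WT WM1119 libraries and between 829 and 1050 CPM in R183W vehicle libraries, nearly all of it from the collagen gene COL1A1, with 3 of its 9 members at 0 throughout. Leukocyte markers stayed at or below 8.67 CPM in sum and endothelial and erythroid markers at or below 1.32 CPM in these 6 libraries.

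Inhibited corrected cells and untreated mutant cells differed in 2082 of 13980 genes tested (14.9%) with edgeR's quasi-likelihood test at an adjusted p under 0.05. Of these, 988 were higher in WT WM1119 cells (7.07% of genes tested) and 1094 were lower (7.83%). Counting only differences of at least 2-fold left 462 higher and 588 lower genes. Libraries of the groups did not overlap in CPM for 2042 genes higher (14.6%) and 2275 genes lower (16.3%) in WT WM1119 cells, and the absence of overlap mentioned for single genes below is to be read against these shares. Without WT WM1119 library 3 the calls numbered 3026 of 13897 (21.8%), 1375 higher (9.89%) and 1651 lower (11.9%), and 1886 of the 2082 genes were among them. Without R183W vehicle libraries 2 or 3 the calls numbered 1280 and 1309. In bulk RNA fewer cells of a type and less RNA per cell cannot be told apart.

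A gene that misses the threshold is not thereby shown to be alike, so likeness was read from the 95% interval of each log2 difference. That interval lay wholly within 2-fold for 7375 genes (52.8%), wholly past 2-fold for 505 (3.61%), of which 193 were higher and 312 lower in WT WM1119 cells, and was unresolved for 6100. Within 2-fold but called were 461 genes, and 4984 were neither called nor held within 2-fold. Without WT WM1119 library 3, 7347 of 13897 genes (52.9%) lay within 2-fold and 545 lay past it (3.92%). For scale, WT vehicle cells against the same R183W vehicle libraries gave 1817 calls (13% of genes tested; 6.17% higher and 6.82% lower) and 7591 genes within 2-fold (54.3%). Its calls numbered 3151 without WT WM1119 library 3, 968 and 1002 without WT vehicle libraries 2 and 3, and 965, 1035 and 1144 without R183W vehicle libraries 1, 2 and 3. WT WM1119 cells against WT vehicle cells gave 680 calls (4.86%; 2.33% higher and 2.53% lower) and 7809 genes within 2-fold (55.9%). Its calls numbered 1392 and 272 without WT WM1119 libraries 1 and 2, and 260 and 247 without WT vehicle libraries 2 and 3. R183W WM1119 cells against R183W vehicle cells gave 649 calls (4.64%; 1.99% higher and 2.65% lower). Its calls numbered 1600 without WT WM1119 library 3, 130 and 118 without R183W WM1119 libraries 1 and 2, and 419, 264 and 275 without R183W vehicle libraries 1, 2 and 3. These comparisons share libraries with the one described here, so only their own values are set side by side.

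Library by library, WT WM1119 cells lay 0.86 to 1.04 from R183W vehicle cells in root mean square log2 CPM over the genes tested (median 0.895 of 9 pairs). They lay 0.845 to 0.985 from R183W WM1119 cells (median 0.922 of 6 pairs) and 0.633 to 1.12 from WT vehicle cells (median 0.729 of 9 pairs). The untreated lines, WT vehicle and R183W vehicle, lay 0.763 to 0.896 apart (median 0.788). Without WT WM1119 library 3 the medians were 0.871 to R183W vehicle, 0.907 to R183W WM1119 and 0.699 to WT vehicle cells. By these medians the inhibited corrected libraries lay nearer to untreated corrected cells than to untreated mutant cells. WT WM1119 library 3 was less clearly placed: it lay 0.988 to 1.04 from R183W vehicle libraries, 0.933 and 0.951 from R183W WM1119 libraries and 0.881 to 1.12 from WT vehicle libraries, and these last distances spanned the others. Replicates of R183W vehicle cells were 0.503 to 0.507 apart. The libraries of WM1119-treated cells were also the shallower ones, and the part of depth in these distances was not tested.

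**Figure D1:**
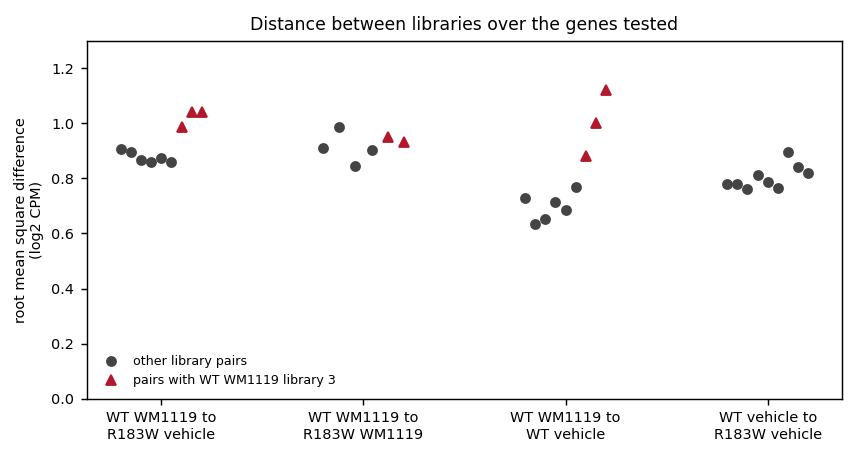
Root mean square difference in log2 CPM (vertical axis) between pairs of libraries, over the 13980 genes tested; each point is a pair of libraries and triangles are pairs with WT WM1119 library 3. Pairs of WT WM1119 with WT vehicle libraries run from 0.633 to 1.12, their 3 highest being pairs with library 3, and pairs of WT WM1119 with R183W vehicle libraries run from 0.86 to 1.04.

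Neither PPP2R1A nor KAT6A was called. PPP2R1A had 28.99, 30.3 and 23.9 CPM in WT WM1119 libraries and 36.5, 31.03 and 35.3 CPM in R183W vehicle libraries. The libraries did not overlap, yet the log2 difference of -0.30 ± 0.17 (SE) had an adjusted p of 0.285, and of 0.422 without library 3. A gene-level count shows neither the substitution nor the activity of the enzyme, so it does not check the labels. KAT6A had 181, 205 and 284 CPM in WT WM1119 libraries and 200.5, 159 and 152 CPM in R183W vehicle libraries, which overlapped, with a log2 difference of 0.39 ± 0.18 (adjusted p = 0.185; 0.471 without library 3). Its paralog KAT6B was higher: 58.9, 60.1 and 97.4 CPM in WT WM1119 libraries against 33.99, 44.5 and 37.9 CPM in R183W vehicle libraries, a log2 difference of 0.88 ± 0.19 (adjusted p = 0.0071; log2 0.61 and adjusted p = 0.00818 without library 3). ING5 had 27.5, 40.3 and 63.995 CPM in WT WM1119 libraries, highest in library 3, and 22.4, 24.8 and 22.3 CPM in R183W vehicle libraries. Its log2 difference of 0.90 ± 0.25 (adjusted p = 0.0265) lost its call when WT WM1119 library 3 (adjusted p = 0.0625) or 2 (0.06), or R183W vehicle library 1 (0.0877), 2 (0.0666) or 3 (0.0886), was left out. BRPF1, BRPF3, BRD1 and MEAF6, subunits of the KAT6 complex, and KAT7, a related MYST acetyltransferase of a separate complex that shares subunits with it, were not called, with log2 differences between 0.02 and 0.82 (0.08 to 0.82 without library 3). Among 27 PP2A subunits and regulators tested, 4 were higher, 2 were lower and 23 lay within 2-fold (6 higher, 3 lower and 21 within 2-fold without library 3). Only 1 of them was higher without R183W vehicle library 2 and 2 without library 3 of that group. The regulatory subunit gene PPP2R2C, of the B55 family, had 10.1, 13.4 and 6.19 CPM in WT WM1119 libraries against 1.65, 0.428 and 1.01 CPM in R183W vehicle libraries. Its log2 difference was 3.20 ± 0.44 (adjusted p = 0.000262; 3.41 without library 3), and WT vehicle libraries had 10.7, 16.8 and 12.2 CPM. PPME1, a methylesterase that acts on the catalytic subunit, had 67.4, 65.8 and 97.03 CPM in WT WM1119 libraries and 129.7, 159.9 and 137 CPM in R183W vehicle libraries and was lower. For PPME1 the log2 difference was -0.90 ± 0.17 (adjusted p = 0.0024; -1.10 without library 3).

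Among the lists described, interferon-stimulated genes (20 of 26, 76.9%) and YAP/TEAD targets (14 of 23, 60.9%) had large shares of called members. The lists were chosen with earlier results of these data known, so their shares are a description. The share called was 8.89% in DNA replication, 5.56% in E2F, 4% in homologous recombination and 11.1% in mitosis, against 14.9% of all genes tested. Without library 3 it was 11.1% in DNA replication, 22.2% in E2F, 16% in homologous recombination and 30.6% in mitosis, against 21.8%, so the low share in E2F and mitosis rests on that library. The lists were read against the background of 7.07% of tested genes called higher and 7.83% called lower (9.89% and 11.9% without library 3), and against a median log2 difference of 0.03 over all genes tested.

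**Figure D2:**
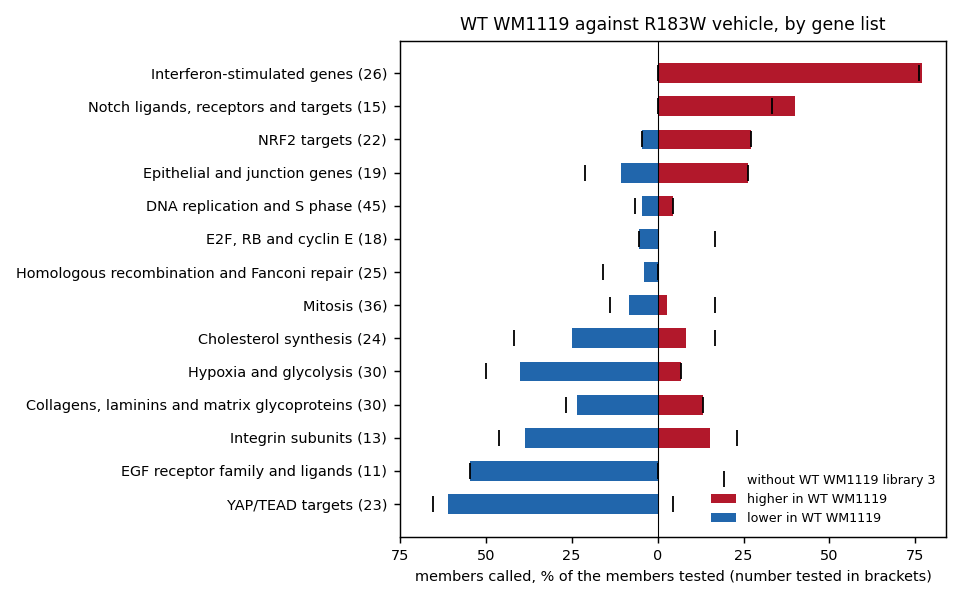
Members of 14 gene lists called between WT WM1119 and R183W vehicle cells, as a percentage of the members tested (number tested in brackets); bars to the right are members higher in WT WM1119 cells, bars to the left members lower, and vertical ticks give the same without WT WM1119 library 3. Interferon-stimulated genes extend to the right with 20 of 26 members, and YAP/TEAD targets to the left with 14 of 23.

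Most genes of DNA replication lay within 2-fold between WT WM1119 and R183W vehicle cells, and some were lower in WT vehicle than in R183W vehicle cells. Of 45 DNA replication and S phase genes tested, 2 were higher and 2 lower in WT WM1119 cells, with a median log2 difference of -0.06, and 33 (73.3%) lay within 2-fold, against 52.8% of all genes tested. Without library 3, 2 were higher and 3 lower, the median was 0.04 and 36 lay within 2-fold. Leaving out any single library left 25 to 36 within 2-fold. An interval has to be narrow to lie within 2-fold, so the share of all genes depends on which genes are tested. With a stricter filter on counts, 7260 of 11294 genes tested lay within 2-fold, and 33 replication genes did. The list was not compared with genes of similar counts. The few calls moved with single libraries. The number higher was 5 without WT WM1119 library 1 and 0 without library 2 of that group, and it was 1 without any other library except R183W vehicle library 1, WT vehicle library 3 and WT WM1119 library 3. The number lower was 0 without R183W vehicle library 1, and it was 1 when WT WM1119 library 2, a single R183W WM1119 library or 1 of vehicle libraries 2 and 3 of R183W cells was left out. WT vehicle cells against the same R183W vehicle cells had 15 of the 45 lower, none higher and a median of -0.41. There 24 lay within 2-fold, a share close to the 54.3% of all genes tested, with the same limit on that comparison. Leaving out single libraries left 12 to 17 lower, and 14 within 2-fold without WT vehicle library 2. WT WM1119 cells against WT vehicle cells had 12 higher, none lower and a median of 0.43, with 5, 6 and 8 higher without WT vehicle library 2, WT vehicle library 3 and WT WM1119 library 2. In R183W cells, WM1119 against vehicle had 9 lower, none higher and a median of -0.61, with 22 lower without WT WM1119 library 3, 1 and 0 without libraries 1 and 2 of its own inhibited group, and 6, 3 and 5 without vehicle libraries 1, 2 and 3 of R183W cells. The 3 directions with none called by edgeR had none at an unadjusted p under 0.05 and none by DESeq2 or limma-voom either. These counts are each comparison's own and share libraries.

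**Figure D3:**
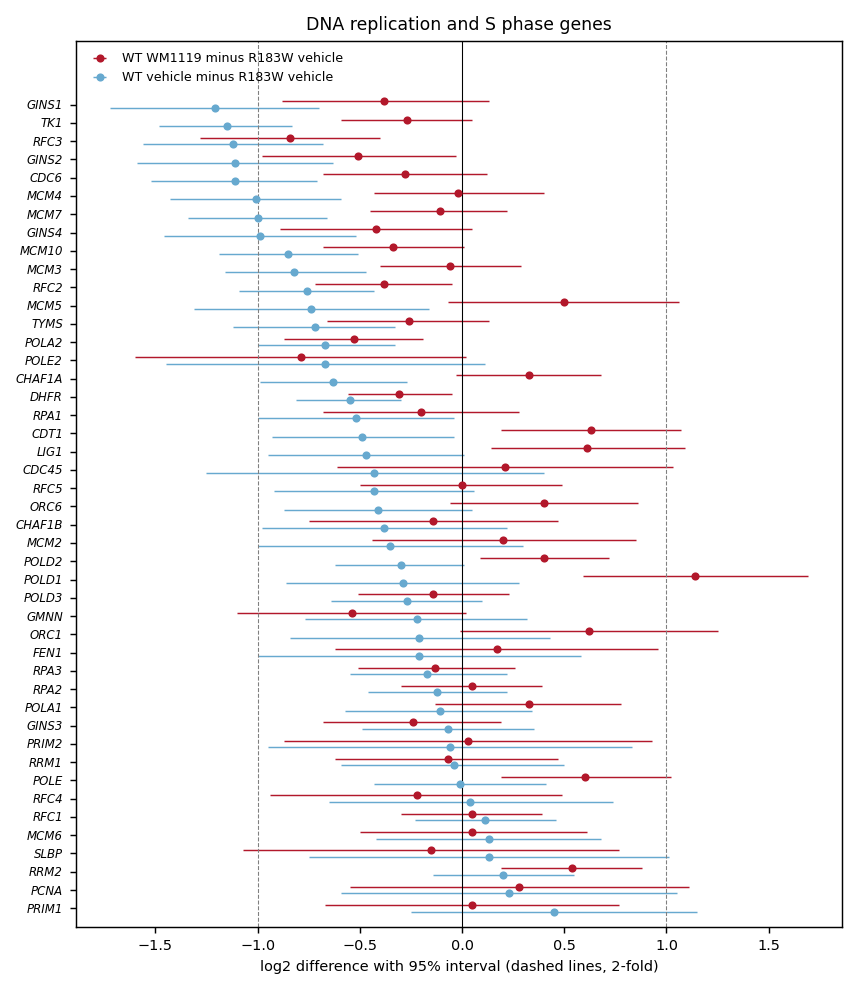
Log2 difference with its 95% interval (horizontal axis) for the 45 DNA replication and S phase genes, sorted by the difference between WT vehicle and R183W vehicle cells; red, WT WM1119 minus R183W vehicle; blue, WT vehicle minus R183W vehicle; dashed lines mark 2-fold. Red intervals lie within the dashed lines for 33 genes and blue intervals for 24.

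Thymidine kinase gene TK1, which salvages thymidine for DNA synthesis, is an example. It, GINS1, E2F1, CCNE1 and BRCA1 were picked because they lay within 2-fold here and differed between the untreated lines, so their values are a description. TK1 had 88.5, 105 and 114 CPM in WT WM1119 libraries, 92.1 and 89.1 CPM in R183W WM1119 libraries, 60.9, 47.5 and 58.3 CPM in WT vehicle libraries and 142, 117 and 112 CPM in R183W vehicle libraries. WT WM1119 and R183W vehicle libraries overlapped, and WT vehicle libraries were below both. Its log2 difference from R183W vehicle cells was -0.27, and -0.36 without library 3. GINS1, a subunit of the replicative helicase, had 21.7, 20.3 and 35.9 CPM in WT WM1119 libraries, 17.6, 14.9 and 10.5 CPM in WT vehicle libraries and 34.5, 31.5 and 33.5 CPM in R183W vehicle libraries. Its overlap with R183W vehicle libraries rests on WT WM1119 library 3: without it the log2 difference was -0.66 with an adjusted p of 0.0307, and -0.38 with it.

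The 4 replication genes called did not share a direction. POLD1, the catalytic subunit of DNA polymerase delta, had 22.2, 32.9 and 28.9 CPM in WT WM1119 libraries and 13.7, 9.84 and 14.4 CPM in R183W vehicle libraries and was higher in all 3. For POLD1 the log2 difference was 1.14 ± 0.26 (adjusted p = 0.00851; 1.10 without library 3; adjusted p = 0.0516 without WT WM1119 library 2). RFC3, a clamp loader subunit, had 42.8, 44.95 and 54.1 CPM in WT WM1119 libraries and 100, 71.1 and 81.3 CPM in R183W vehicle libraries and was lower. For RFC3 the log2 difference was -0.84 ± 0.21 (adjusted p = 0.0135; -0.95 without library 3; adjusted p = 0.0563 without R183W vehicle library 1). RRM2, a ribonucleotide reductase subunit, had 85.9, 83.2 and 58.6 CPM in WT WM1119 libraries and 49.3, 50.7 and 57.8 CPM in R183W vehicle libraries, and POLA2, of the primase complex, had 35.8, 35.2 and 28.1 CPM in WT WM1119 libraries and 47.5, 47.5 and 48.9 CPM in R183W vehicle libraries. RRM2 was higher (log2 0.54 ± 0.16, adjusted p = 0.0381; 0.00214 without library 3) and POLA2 lower (log2 -0.53 ± 0.16, adjusted p = 0.0379; 0.0569 without library 3). RRM2 lost its call without any of 9 of the 11 libraries, all but WT vehicle library 3 and WT WM1119 library 3 (adjusted p from 0.0581 to 0.165). POLA2 lost its call when WT WM1119 library 2 or 3, a single R183W WM1119 library or a single R183W vehicle library was left out (adjusted p from 0.0531 to 0.107).

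E2F and cyclin E genes drive entry into S phase. Of 18 tested, none was higher, 1 was lower, 11 lay within 2-fold and the median log2 difference was 0.03; without library 3, 3 were higher, 1 was lower and the median was 0.04, and without WT WM1119 library 1, 2 were lower. At an unadjusted p under 0.05, 3 were higher, and DESeq2 and limma-voom called none higher. The median was -0.41 for WT vehicle against R183W vehicle cells, with 6 members lower, 3 without R183W vehicle library 1 or 2 or WT vehicle library 2, and 4 without WT vehicle library 3. E2F1, a transcription factor that activates replication genes, had 37.3, 52.7 and 60.7 CPM in WT WM1119 libraries, 28.1 and 38.1 CPM in R183W WM1119 libraries, 30.8, 25.2 and 27.8 CPM in WT vehicle libraries and 66.3, 52.2 and 59.2 CPM in R183W vehicle libraries. Its 95% interval against R183W vehicle cells ran from -0.67 to 0.16 on the log2 scale (-0.80 to -0.02 without library 3), and WT vehicle libraries were the lowest with R183W WM1119 library 1. CCNE1, which encodes cyclin E1, had 8.57, 7.71 and 9.08 CPM in WT WM1119 libraries, 3.12, 4.002 and 4.52 CPM in WT vehicle libraries and 11.5, 11.8 and 5.88 CPM in R183W vehicle libraries, with an interval from -0.87 to 0.45 (-0.99 to 0.46 without library 3). The member called was TFDP2, a dimerization partner of E2F factors, with 162, 167 and 182.9 CPM in WT WM1119 libraries and 290.2, 326 and 299 CPM in R183W vehicle libraries, lower without overlap. For TFDP2 the log2 difference was -0.84 ± 0.12 (adjusted p = 0.000244; -0.90 without library 3).

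Homologous recombination and Fanconi repair genes had 0 of 25 higher and 1 lower in edgeR, with a median of -0.08 and 16 within 2-fold (0 higher and 4 lower without library 3, and 2 lower without WT vehicle library 1 or 3). At an unadjusted p under 0.05, 2 of the 25 were higher; DESeq2 called 1 higher and limma-voom 0. BRCA1, a recombination factor, had 154, 162 and 272 CPM in WT WM1119 libraries, 137, 121 and 89.2 CPM in WT vehicle libraries and 201, 218 and 201 CPM in R183W vehicle libraries. WT WM1119 library 3 was the highest of all and libraries 1 and 2 lay below every R183W vehicle library, so the log2 difference was -0.08 with library 3 and -0.40 without it (adjusted p = 0.0626). BRCA2, a recombination mediator, stayed lower, at 58.2, 61.4 and 83.4 CPM in WT WM1119 libraries against 101, 120.5 and 116 CPM in R183W vehicle libraries. For BRCA2 the log2 difference was -0.74 ± 0.16 (adjusted p = 0.00582; -0.92 without library 3). Mitosis genes had 1 of 36 higher, 3 lower and 31 within 2-fold, with a median of -0.01 (6 higher and 5 lower without library 3, 1 lower without WT WM1119 library 2 or vehicle library 2 of R183W cells, and 5 lower without WT WM1119 library 1). FOXM1, which activates mitotic genes, had 51.4, 49.3 and 49.5 CPM in WT WM1119 libraries and 24.9, 31.2 and 21.3 CPM in R183W vehicle libraries and was higher. For FOXM1 the log2 difference was 0.96 ± 0.19 (adjusted p = 0.00346; 0.96 without library 3). TOP2A, a topoisomerase of mitotic chromosomes, had 1313, 1468 and 2199 CPM in WT WM1119 libraries and 2931, 2546 and 2527 CPM in R183W vehicle libraries and was lower. For TOP2A the log2 difference was -0.68 ± 0.17 (adjusted p = 0.0152; -0.95 without library 3; adjusted p = 0.0505 without WT WM1119 library 2).

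Other genes that differed between untreated lines and lay within 2-fold here came from varied lists, and their values are likewise a description. PSPH, the last enzyme of serine synthesis, had 83.9, 82.5 and 87.1 CPM in WT WM1119 libraries, 47.3, 53.4 and 57.8 CPM in WT vehicle libraries and 83.2, 97.2 and 104 CPM in R183W vehicle libraries, a log2 difference of -0.16 from R183W vehicle cells (-0.19 without library 3). CDKN1C, the cyclin-dependent kinase inhibitor p57, had 20.4, 20.5 and 17.3 CPM in WT WM1119 libraries, 17.04 and 17.2 CPM in R183W WM1119 libraries, 35.7, 39.8 and 36.3 CPM in WT vehicle libraries and 16.005, 16.9 and 20.5 CPM in R183W vehicle libraries. WT vehicle libraries were the high ones for CDKN1C, and WT WM1119 and R183W vehicle libraries overlapped (log2 0.14, and 0.20 without library 3). BIRC3, an inhibitor of apoptosis under NF-kB control, had 55.1, 48.3 and 75.97 CPM in WT WM1119 libraries, 131, 130 and 125 CPM in WT vehicle libraries and 51.97, 70.6 and 57.4 CPM in R183W vehicle libraries, again with WT vehicle libraries high and the groups compared here overlapping (log2 -0.01, and -0.22 without library 3). COL1A1, a chain of type I collagen, had 863, 819 and 849.7 CPM in WT WM1119 libraries, 579.7, 609 and 657 CPM in WT vehicle libraries and 724, 854 and 927 CPM in R183W vehicle libraries. Its interval against R183W vehicle cells, from -0.23 to 0.26 on the log2 scale (-0.23 to 0.24 without library 3), lay within 2-fold, and WT vehicle libraries were lower than both groups.

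**Figure D4:**
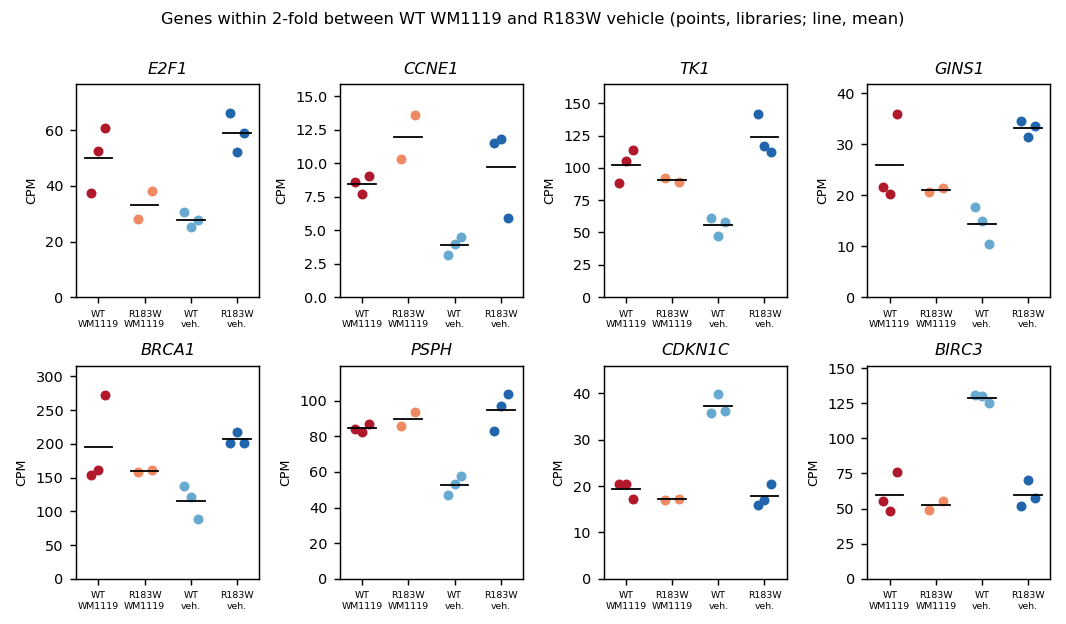
CPM (vertical axis, from 0) of 8 genes within 2-fold between WT WM1119 and R183W vehicle cells, by group; points are libraries and lines are means. WT vehicle libraries stand below the R183W vehicle libraries for E2F1, CCNE1, TK1, GINS1, BRCA1 and PSPH and above them for CDKN1C and BIRC3.

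Interferon-stimulated genes stayed apart, higher in WT WM1119 cells. Of 26 tested, 20 were higher in WT WM1119 cells and none was lower, with called log2 differences from 0.70 to 8.19 and a median over the 26 of 2.06 (19 of 25 higher and a median of 1.82 without library 3; 17 to 20 higher with any library left out). None was lower at an unadjusted p under 0.05 or by DESeq2 or limma-voom. The 2 members at 0 in R183W vehicle cells lay above the median of 2.06 even at their lower bound, so setting them there could not move it. WT vehicle cells against R183W vehicle cells had 18 higher and a median of 1.58, and WT WM1119 cells against WT vehicle cells had 4 higher (2 without WT WM1119 library 2 or WT vehicle library 2 or 3), none lower (1 at an unadjusted p under 0.05, 0 by DESeq2 and limma-voom) and a median of 0.25. Inhibited R183W cells, set against their own vehicle group, had 6 members higher, none lower and a median of 0.56. The number higher fell to 1 when R183W WM1119 library 2 was dropped. It rose to 10, with 1 lower, when library 3 of inhibited corrected cells was dropped. At an unadjusted p under 0.05, 2 were lower, and DESeq2 and limma-voom called 0 lower. Type I interferons act through the JAK-STAT pathway and the transcription factor complex ISGF3, which binds the interferon-stimulated response element (ISRE) in the promoters of such genes.

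The ISRE core was looked for in the promoters of the list, since the members moved together. The letters searched were GAAA and GAAA with any 2 bases between them, on both strands of the 250 bases before the start in RefSeq promoters (GRCh38.p14). They were present in 9 of the 17 promoters found for the 20 called members (52.9%), in 12 of the 22 found for all 26 members tested (54.5%) and in 839 of 27305 promoters in all (3.07%). The core was thus about as frequent among called members as in the list as a whole. A match describes the letters and shows no binding. The stretches below run 5′ to 3′ on the strand of the gene, with the core in capitals, and are printed for genes described next. They cover chr1:78649689-78649788 (plus strand) for IFI44, chr19:17405703-17405802 (minus strand) for BST2 and chr1:78620264-78620404 (plus strand) for IFI44L, in RefSeq's build and not in the hg19 build of the counts. In BST2 the capitals hold 2 overlapping cores, and in IFI44L the core occurs 2 times within a repeated stretch.
IFI44: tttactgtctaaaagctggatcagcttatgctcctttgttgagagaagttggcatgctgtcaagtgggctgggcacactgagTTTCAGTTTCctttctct
BST2: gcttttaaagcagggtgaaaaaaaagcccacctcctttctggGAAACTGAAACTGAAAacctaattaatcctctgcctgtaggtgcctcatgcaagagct
IFI44L: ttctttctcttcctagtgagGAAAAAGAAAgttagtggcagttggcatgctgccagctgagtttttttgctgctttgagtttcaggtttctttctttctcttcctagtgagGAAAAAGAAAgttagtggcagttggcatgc

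IFI44L, an interferon-induced gene whose promoter is printed here, had 33.4, 24.7 and 25.2 CPM in WT WM1119 libraries, 3.36 and 1.81 CPM in R183W WM1119 libraries, 31.01, 24.8 and 27.3 CPM in WT vehicle libraries and 1.98, 1.71 and 3.45 CPM in R183W vehicle libraries. The WT libraries were high with either treatment and did not overlap the R183W libraries. Its log2 difference was 3.54 ± 0.29 (adjusted p = 2.98e-06; 3.60 without library 3), and 0.01 for WT WM1119 against WT vehicle cells (adjusted p = 0.987). BST2, which encodes tetherin, a protein that holds budding viruses at the cell surface, had 9.66, 3.34 and 2.48 CPM in WT WM1119 libraries and 0.33, 0 and 0.608 CPM in R183W vehicle libraries, without overlap. For BST2 the log2 difference was 3.96 ± 0.76 (adjusted p = 0.00313; 4.25 without library 3). IFI44 rested on 29 counts in WT WM1119 libraries and 2 in R183W vehicle libraries, that is 4.61, 1.54 and 0.826 CPM in WT WM1119 libraries and 0, 0 and 0.406 CPM in R183W vehicle libraries. The ratio was 20.9-fold with an exact counting interval of 5.29 to 181 (adjusted p = 0.0267; 0.00832 without library 3; 0.102 and 0.0964 without R183W vehicle libraries 1 and 2). IFI44L and BST2, like ISG15 below, lie outside the naming rule and were chosen after their values were seen.

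OASL, an antiviral relative of the oligoadenylate synthetases, was on in WT WM1119 and off in R183W vehicle libraries. It had 9.66, 6.94 and 7.84 CPM in WT WM1119 libraries, 0.96 and 0.906 CPM in R183W WM1119 libraries, 2.68, 4.19 and 4.89 CPM in WT vehicle libraries and no count in the 3 R183W vehicle libraries. It was at least 43-fold higher in WT WM1119 than in R183W vehicle cells, taking 3 counts over the group as the floor (adjusted p = 3.54e-05; 1.66e-05 without library 3). HERC6, an interferon-induced ubiquitin ligase relative, had 3.29, 1.54 and 5.37 CPM in WT WM1119 libraries and no count in R183W vehicle libraries, at least 16-fold higher (adjusted p = 0.00577), and was too low to be tested without library 3. RSAD2, which encodes viperin, had 3.51, 4.37 and 2.06 CPM in WT WM1119 libraries and 0.495, 0 and 0 CPM in R183W vehicle libraries, a ratio of 18.3-fold with an exact counting interval of 5.79 to 92.5 (adjusted p = 0.0088; 0.0038 without library 3).

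ISG15, a ubiquitin-like modifier, had 106, 126 and 192 CPM in WT WM1119 libraries, 21.4 and 40.2 CPM in R183W WM1119 libraries, 61.1, 35.6 and 25.03 CPM in WT vehicle libraries and 13.9, 13.1 and 15.01 CPM in R183W vehicle libraries, with a log2 difference of 3.33 ± 0.34 (adjusted p = 1.63e-05; 3.04 without library 3). The 6 members not called were OAS3, IFI35, ISG20, USP18, STAT2 and HERC5, with log2 differences from -0.14 for OAS3 to 1.23 for HERC5.

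Where Notch genes were called, they were higher in WT WM1119 cells. Notch receptors bind JAG and DLL ligands on neighbouring cells, and HEY genes are their targets. Of 15 tested, 6 were higher in WT WM1119 cells and none lower (1 at an unadjusted p under 0.05, 0 by DESeq2 and limma-voom). The median log2 difference was 0.56, and 5 were higher without library 3. WT vehicle against R183W vehicle cells had 5 higher, 1 lower and a median of 0.48. Leaving out single libraries left 4 to 7 higher, and none lower for 9 of the 11 libraries, all but WT WM1119 libraries 1 and 3. The number for WT WM1119 cells depended on single libraries: 2 without WT WM1119 library 2 or vehicle library 1 of R183W cells, and 3 without WT vehicle library 1 or 2 or R183W vehicle library 2 or 3. JAG1, a ligand, had 150.5, 116 and 127 CPM in WT WM1119 libraries, 69.8 and 63.1 CPM in R183W WM1119 libraries, 203, 214 and 242 CPM in WT vehicle libraries and 39.9, 43.02 and 42.4 CPM in R183W vehicle libraries. WT WM1119 libraries thus lay between the untreated lines and overlapped neither. The log2 difference was 1.65 ± 0.14 against R183W vehicle cells (adjusted p = 3.11e-06; 1.67 without library 3) and -0.74 against WT vehicle cells (adjusted p = 0.00636). The receptor gene NOTCH1 had 12.3, 17.5 and 6.19 CPM in WT WM1119 libraries and 3.13, 2.14 and 4.46 CPM in R183W vehicle libraries, without overlap. For NOTCH1 the log2 difference was 1.90 ± 0.37 (adjusted p = 0.00327; 2.17 without library 3). NOTCH3 had 16.9, 12.6 and 15.7 CPM in WT WM1119 libraries and 6.27, 7.70 and 9.33 CPM in R183W vehicle libraries, and the target gene HEY2 had 10.5, 10.5 and 13.2 CPM in WT WM1119 libraries and 3.13, 7.92 and 5.47 CPM in R183W vehicle libraries. NOTCH3 was called with all libraries (log2 0.96 ± 0.29, adjusted p = 0.041) but not without WT WM1119 library 1 or 2, WT vehicle library 1 or 2 or any R183W vehicle library (adjusted p from 0.0554 to 0.158). HEY2 was called with all libraries (log2 1.06 ± 0.33, adjusted p = 0.043) but not without any of 10 libraries, all but R183W vehicle library 2 (adjusted p from 0.0517 to 0.162).

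Genes of cell junctions, matrix and the cell surface differed in both directions. Of 19 epithelial and junction genes, 5 were higher and 2 lower (5 higher and 4 lower without library 3). CLDN3, a tight junction claudin, had 69.4, 88.4 and 62.3 CPM in WT WM1119 libraries, 30.5 and 36.2 CPM in R183W WM1119 libraries, 5.13, 9.53 and 4.14 CPM in WT vehicle libraries and 4.12, 2.35 and 1.82 CPM in R183W vehicle libraries. Both inhibited groups were high and both vehicle groups low, with a log2 difference of 4.68 ± 0.33 from R183W vehicle cells (adjusted p = 7.24e-07; 4.77 without library 3). PKP3, a plakophilin of desmosomes, was instead high in both WT groups. It had 66.3, 94.3 and 173 CPM in WT WM1119 libraries and 94.8, 91.5 and 69.8 CPM in WT vehicle libraries. R183W WM1119 libraries had 8.64 and 6.95 CPM, and R183W vehicle libraries had 13.5, 17.98 and 15.6 CPM. For PKP3 the log2 difference was 2.81 ± 0.30 (adjusted p = 2.46e-05; 2.35 without library 3). Its relative PKP2 ran opposite, with 1.32, 0 and 0.413 CPM in WT WM1119 libraries and 5.11, 7.28 and 3.85 CPM in R183W vehicle libraries. For PKP2 the log2 difference was -3.06 ± 0.69 (adjusted p = 0.00881; -2.92 without library 3). KLK6, a kallikrein-related peptidase, had 108, 124 and 99.5 CPM in WT WM1119 libraries, 9.84 and 8.46 CPM in R183W WM1119 libraries, 94.8, 90.9 and 96.3 CPM in WT vehicle libraries and 8.58, 12.2 and 8.31 CPM in R183W vehicle libraries, so WT libraries were high with either treatment. For KLK6 the log2 difference was 3.51 ± 0.18 (adjusted p = 3.79e-08; 3.57 without library 3). It was the 1 member called of 3 kallikrein genes tested.

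Keratin genes had 4 of 7 tested members lower and none higher by edgeR, at an unadjusted p under 0.05, or by DESeq2 or limma-voom (6 lower without library 3, and 2 without WT WM1119 library 1 or vehicle library 1 of R183W cells). KRT80, a keratin of epithelial filaments, had 11.2, 13.4 and 11.1 CPM in WT WM1119 libraries and 28.5, 16.7 and 20.3 CPM in R183W vehicle libraries. For KRT80 the log2 difference was -0.88 ± 0.23 (adjusted p = 0.0212; 0.0232 without library 3; 0.0572 without WT WM1119 library 1 and 0.0995 without the first R183W vehicle library). KRT81 and KRT86 are near-identical hair keratin genes between which estimated counts can be split, so their values are uncertain. KRT81 had 0.879, 1.54 and 1.24 CPM in WT WM1119 libraries and 7.26, 3.85 and 7.30 CPM in R183W vehicle libraries. For KRT81 the log2 difference was -2.33 ± 0.46 (adjusted p = 0.00365; 0.00436 without library 3). KRT86 had 1.76, 2.31 and 0.826 CPM in WT WM1119 libraries and 9.73, 4.07 and 8.11 CPM in R183W vehicle libraries. For KRT86 the log2 difference was -2.08 ± 0.46 (adjusted p = 0.00723; 0.0103 without library 3).

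Of 30 collagens, laminins and matrix glycoproteins, 4 were higher and 7 lower (4 and 8 without library 3; 2 higher without WT WM1119 library 2 or vehicle library 1 or 2 of R183W cells). LAMA4, a laminin chain of basement membranes, had 132, 118 and 121 CPM in WT WM1119 libraries, 117, 119.7 and 121 CPM in WT vehicle libraries and 14.7, 14.8 and 20.1 CPM in R183W vehicle libraries. Its log2 difference was 2.91 ± 0.17 (adjusted p = 8.34e-08; 2.92 without library 3), and 0.06 between WT WM1119 and WT vehicle cells (adjusted p = 0.865). TNC, the matrix glycoprotein tenascin C, was lower, at 14.7, 12.3 and 5.78 CPM in WT WM1119 libraries, 25.7 and 19.6 CPM in R183W WM1119 libraries, 30.3, 31.3 and 33.1 CPM in WT vehicle libraries and 57.9, 72.98 and 86.6 CPM in R183W vehicle libraries. WT WM1119 libraries were the lowest of the 4 groups and did not overlap the others. For TNC the log2 difference was -2.67 ± 0.26 (adjusted p = 1.15e-05; -2.42 without library 3). COL13A1, a transmembrane collagen, had 15.8, 8.99 and 8.67 CPM in WT WM1119 libraries and 64.2, 66.99 and 65.3 CPM in R183W vehicle libraries. For COL13A1 the log2 difference was -2.52 ± 0.24 (adjusted p = 9.78e-06; -2.39 without library 3). FN1, which encodes fibronectin and was counted with mesenchymal genes, had 379.5, 347 and 225 CPM in WT WM1119 libraries, 151 and 157 CPM in R183W WM1119 libraries, 468, 603 and 628 CPM in WT vehicle libraries and 61.05, 73.4 and 69.6 CPM in R183W vehicle libraries. WT WM1119 libraries lay between the untreated lines and overlapped neither. For FN1 the log2 difference was 2.23 ± 0.19 (adjusted p = 3.21e-06; 2.41 without library 3). Mesenchymal genes and factors of epithelial-mesenchymal transition as a list had 4 of 15 higher and 4 lower (4 and 6 without library 3; 2 higher without WT WM1119 library 2 or vehicle library 1 or 2 of R183W cells, and 2 lower without R183W vehicle library 1).

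Integrin subunits, the receptors for such matrix, had 2 of 13 higher and 5 lower (3 and 6 without library 3; 1 higher without R183W vehicle library 1). ITGB8, which activates latent TGF-beta, had 14.7, 10.8 and 7.02 CPM in WT WM1119 libraries and 1.65, 2.78 and 1.82 CPM in R183W vehicle libraries and was higher without overlap. For ITGB8 the log2 difference was 2.41 ± 0.35 (adjusted p = 0.000396; 2.61 without library 3). ITGA3, a laminin receptor subunit, had 185, 230.2 and 308 CPM in WT WM1119 libraries, 633, 521 and 445 CPM in WT vehicle libraries and 697, 561 and 603 CPM in R183W vehicle libraries, so WT WM1119 libraries were low and the untreated lines overlapped. For ITGA3 the log2 difference was -1.37 ± 0.18 (adjusted p = 0.000198; -1.59 without library 3). Between WT vehicle and R183W vehicle cells the log2 difference was -0.22 (adjusted p = 0.457). ITGA1, a collagen receptor subunit, had 21.1, 24.1 and 23.9 CPM in WT WM1119 libraries and 71.1, 66.6 and 74.8 CPM in R183W vehicle libraries. For ITGA1 the log2 difference was -1.62 ± 0.15 (adjusted p = 9.94e-06; -1.66 without library 3).

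Several genes were close to off in R183W vehicle cells and on in WT WM1119 cells. INHBA, which encodes the activin A subunit, had 45.7, 36.7 and 27.2 CPM in WT WM1119 libraries, 0.48 and 0 CPM in R183W WM1119 libraries, 185, 213 and 289 CPM in WT vehicle libraries and 0.99, 0.428 and 0.811 CPM in R183W vehicle libraries. It was far lower in WT WM1119 than in WT vehicle libraries and still far above either R183W group. For INHBA the log2 difference was 5.55 ± 0.36 (adjusted p = 3.16e-07, 5.70 without library 3; -2.63 ± 0.22 from WT vehicle cells, adjusted p = 1.86e-05). FLG, which encodes the epidermal barrier protein filaggrin, had 293, 238 and 218 CPM in WT WM1119 libraries, 1.44 and 2.42 CPM in R183W WM1119 libraries, 132, 148 and 139 CPM in WT vehicle libraries and 1.98, 5.99 and 6.49 CPM in R183W vehicle libraries. For FLG the log2 difference was 5.73 ± 0.29 (adjusted p = 3.79e-08; 5.82 without library 3). PRMT8, an arginine methyltransferase of the nervous system, had 19.1, 22.3 and 27.7 CPM in WT WM1119 libraries, 22.8, 19.2 and 17.9 CPM in WT vehicle libraries and 0, 0 and 0.608 CPM in R183W vehicle libraries. On 241 counts in WT WM1119 and 3 in R183W vehicle libraries its ratio was 116-fold, with an exact counting interval of 39.2 to 565 (adjusted p = 4.3e-06; 5.2e-07 without library 3). VCAM1, a cell adhesion molecule of the immunoglobulin family, had 9.44, 6.94 and 2.06 CPM in WT WM1119 libraries and 0.33, 0 and 0 CPM in R183W vehicle libraries, a ratio of 54.1-fold on 75 counts in WT WM1119 and 2 in R183W vehicle libraries (counting interval 14.5 to 455, adjusted p = 0.000616; 3.07e-05 without library 3). IFI16, a sensor of DNA, had 1.98, 4.37 and 4.54 CPM in WT WM1119 libraries and 0.165, 0 and 0 CPM in R183W vehicle libraries (37 counts in WT WM1119 and 1 in R183W vehicle libraries, ratio 53.3-fold, counting interval 9 to 2160, adjusted p = 0.0014; 0.00148 without library 3). Beside these, OASL and CLDN3, the 12 genes that the naming rule gave in this direction were completed by ZNF628, ADGRF2, CHI3L1, BTNL8 and SYT7. Each of those last genes had at most 3 counts in R183W vehicle libraries, and the rule admits only genes without overlap.

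In the opposite direction several genes were on in R183W vehicle cells and at or near 0 in WT WM1119 cells. SP140, a chromatin reader of immune cells, had 0, 0 and 0.413 CPM in WT WM1119 libraries, 5.04 and 7.25 CPM in R183W WM1119 libraries, 3.57, 0.953 and 2.26 CPM in WT vehicle libraries and 32.8, 50.9 and 49.3 CPM in R183W vehicle libraries. With 1 count in WT WM1119 and 680 in R183W vehicle libraries it was 472-fold lower, with an exact counting interval of 84.4 to 18700 (adjusted p = 1.19e-06; 1.57e-07 without library 3). SP140 was lower in WT vehicle than in R183W vehicle cells (log2 -4.30, adjusted p = 6.46e-06). It was also lower in R183W WM1119 than in R183W vehicle cells (log2 -2.86, adjusted p = 0.00141). Whether differences between the lines come with the substitution or with the clone was not tested. ANKS4B, a scaffold of microvilli, was low in both WT groups. It had 0, 0 and 0.413 CPM in WT WM1119 libraries and 0, 0 and 0.565 CPM in WT vehicle libraries. R183W WM1119 libraries had 29.995 and 26.6 CPM, and R183W vehicle libraries had 17.8, 22.04 and 16.8 CPM. ANKS4B was 204-fold lower in WT WM1119 than in R183W vehicle cells (counting interval 36.3 to 8080, adjusted p = 8.41e-06, and 1.38e-06 without library 3). A1CF, a cofactor of apolipoprotein B mRNA editing, had no count in WT WM1119 or WT vehicle libraries, 12.7 and 9.97 CPM in R183W WM1119 libraries and 3.79, 8.56 and 8.31 CPM in R183W vehicle libraries. It was at least 24-fold lower in WT WM1119 than in R183W vehicle cells (adjusted p = 0.000663; 0.000239 without library 3). RNF165, an E3 ubiquitin ligase gene, and MOV10L1, a helicase of the germline piRNA pathway, also had no count in WT WM1119 libraries. RNF165 had 6.10, 9.63 and 6.89 CPM in R183W vehicle libraries, so it was at least 27-fold lower in WT WM1119 cells (adjusted p = 0.000352; 0.000181 without library 3). MOV10L1 had 6.93, 6.85 and 6.89 CPM in R183W vehicle libraries and was at least 25-fold lower (adjusted p = 0.000732; 0.000393 without library 3). JAKMIP2, PHYHIPL, COL12A1, CAPN6, RNF128, ZNF268 and RAB39B were likewise at 0 counts in WT WM1119 libraries, with 49 to 84 counts over R183W vehicle libraries, and at least 11- to 19-fold lower.

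YAP/TEAD targets were lower in inhibited corrected cells. YAP is a transcriptional coactivator held back by the Hippo kinases, and it acts through DNA-binding TEAD factors. Of 23 tested, 14 were lower and none higher, with called log2 differences from -3.75 to -0.46 and a median of -0.70 over the 23. At an unadjusted p under 0.05, 2 were higher; DESeq2 called 1 higher and limma-voom 0. Without library 3, 15 were lower, 1 was higher and the median was -0.67; 9 were lower without R183W vehicle library 2, and 1 was higher without R183W vehicle library 3. WT vehicle cells against R183W vehicle cells had 3 lower, 2 higher and a median of -0.23. There 5 were lower and 3 higher without WT WM1119 library 3, and 1 was higher without R183W vehicle library 1 or WT vehicle library 2 or 3. WT WM1119 cells against WT vehicle cells had 5 lower (3 without WT WM1119 library 2 or WT vehicle library 2, and 9 without WT WM1119 library 1) and a median of -0.59, with none higher by edgeR, at an unadjusted p under 0.05, or by DESeq2 or limma-voom. In R183W cells WM1119 against vehicle had 8 lower and a median of -0.59, with 12 lower without WT WM1119 library 3, 4 and 3 without R183W WM1119 libraries 1 and 2, and 5 and 4 without R183W vehicle libraries 2 and 3. Not every member was called lower. The widely used targets CCN1 and CCN2 (CYR61 and CTGF in the annotation used) were below 0 but not called, at log2 -1.52 and -0.33. Members above 0 were FOXF2 at 2.96, ASAP1 at 0.38, MYOF at 0.18 and TGFB2 at 0.1, none of them called with all libraries.

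ANKRD1, an ankyrin repeat protein and a much used YAP reporter, had the largest difference of the list. It had 14.9, 14.6 and 15.3 CPM in WT WM1119 libraries, 12.2 and 12.1 CPM in R183W WM1119 libraries, 123, 107 and 112 CPM in WT vehicle libraries and 174, 222 and 209 CPM in R183W vehicle libraries. Both inhibited groups were low, close together and far from both vehicle groups. The log2 difference was -3.75 ± 0.15 (adjusted p = 3.13e-09; -3.77 without library 3), against -0.82 for WT vehicle against R183W vehicle cells (adjusted p = 0.000806). The TEAD core GGAATG, or its reverse complement CATTCC, was searched on both strands of the 250 bases before the start, as for the ISRE. It was in 3 of the 11 promoters found for the 14 called members (27.3%), in 6 of the 16 found for all 23 members tested (37.5%) and in 11.9% of all promoters. Called members thus did not hold it more often than the list as a whole. The AP-1 letters, TGA and TCA with any base between them, were also searched. They were in 1 of the 11 promoters, that of ANKRD1, in 1 of the 16 and in 6.6% of all promoters. The E2F letters TTTCGCGC were in 3 of 38 promoters found for DNA replication and S phase genes (7.89%) and in 0.469% of all promoters. The ANKRD1 promoter holds the TEAD core 2 times, in capitals in the RefSeq stretch chr10:90921190-90921327 (minus strand, GRCh38.p14). AP-1 letters are not in capitals.
ANKRD1: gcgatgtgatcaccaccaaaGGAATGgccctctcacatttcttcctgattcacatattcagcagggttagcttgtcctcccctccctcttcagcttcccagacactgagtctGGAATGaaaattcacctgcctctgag

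GADD45A, a stress and growth arrest gene that is also a p53 target, had 36.5, 27.7 and 27.7 CPM in WT WM1119 libraries, 67.2, 52.8 and 69.4 CPM in WT vehicle libraries and 89.4, 114 and 126 CPM in R183W vehicle libraries, lower without overlap. For GADD45A the log2 difference was -1.83 ± 0.18 (adjusted p = 1.24e-05; -1.77 without library 3). AXL, a receptor tyrosine kinase, had 81.3, 100.2 and 132 CPM in WT WM1119 libraries, 113 and 125 CPM in R183W WM1119 libraries, 175, 141 and 161 CPM in WT vehicle libraries and 380.2, 289 and 305 CPM in R183W vehicle libraries. R183W vehicle libraries were the highest for AXL. For AXL the log2 difference was -1.64 ± 0.18 (adjusted p = 2.73e-05; -1.85 without library 3). AMOTL2, an angiomotin that binds YAP, was low throughout, with 6 counts in WT WM1119 and 47 in R183W vehicle libraries. It was called with all libraries (log2 difference -2.41 ± 0.66, adjusted p = 0.0253) and without library 3 (0.0399), but not without R183W vehicle libraries 2 (0.0576) or 3 (0.0818) or WT WM1119 libraries 1 (0.0527) or 2 (0.0761).

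AP-1 and immediate early genes had 1 of 15 higher and 4 lower (2 and 5 of 14 without library 3). FOSL1, an AP-1 subunit induced by ERK signalling, had 16.3, 15.9 and 11.97 CPM in WT WM1119 libraries, 25.7 and 27.8 CPM in R183W WM1119 libraries, 66.04, 76.2 and 81.7 CPM in WT vehicle libraries and 98.998, 104 and 95.5 CPM in R183W vehicle libraries. WT WM1119 libraries were the lowest and did not overlap any other group. For FOSL1 the log2 difference was -2.74 ± 0.16 (adjusted p = 1.13e-07; -2.64 without library 3). EGR1, an immediate early transcription factor, was lowest in both WT groups: 19.1, 25.7 and 30.97 CPM in WT WM1119 libraries, 49.9 and 65.5 CPM in R183W WM1119 libraries, 16.7, 27.1 and 27.8 CPM in WT vehicle libraries and 90.1, 110.2 and 101 CPM in R183W vehicle libraries. For EGR1 the log2 difference was -2.01 ± 0.22 (adjusted p = 3.54e-05; -2.18 without library 3). JUN, an AP-1 subunit, was lowest in both inhibited groups: 56.01, 59.9 and 55.3 CPM in WT WM1119 libraries, 55.9 and 49.2 CPM in R183W WM1119 libraries, 119, 101 and 101 CPM in WT vehicle libraries and 122, 105 and 104 CPM in R183W vehicle libraries. For JUN the log2 difference was -0.95 ± 0.13 (adjusted p = 0.000289; -0.94 without library 3). The related JUND was higher, at 17.8, 24.1 and 26.4 CPM in WT WM1119 libraries against 11.7, 10.5 and 8.52 CPM in R183W vehicle libraries. For JUND the log2 difference was 1.14 ± 0.24 (adjusted p = 0.0059; 1.02 without library 3).

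The EGF receptor family and its ligands, which act upstream of ERK, had 6 of 11 lower and none higher, with a median of -0.57 (6 lower and a median of -0.64 without library 3). None was higher at an unadjusted p under 0.05 or by DESeq2 or limma-voom. TGFA, a ligand, had 7.69, 13.6 and 9.08 CPM in WT WM1119 libraries and 29.5, 28.5 and 32.8 CPM in R183W vehicle libraries, without overlap. For TGFA the log2 difference was -1.57 ± 0.24 (adjusted p = 0.000531; -1.53 without library 3). EREG, the ligand epiregulin, had 47.4, 31.1 and 37.98 CPM in WT WM1119 libraries, 93.04, 101 and 131 CPM in WT vehicle libraries and 65.7, 76.4 and 72.4 CPM in R183W vehicle libraries, so WT vehicle libraries were the highest and WT WM1119 libraries the lowest of the 3 groups. For EREG the log2 difference was -0.87 ± 0.19 (adjusted p = 0.00703; -0.86 without library 3). ERRFI1, which restrains the receptor, had 36.9, 25.9 and 18.99 CPM in WT WM1119 libraries and 59.9, 69.1 and 59.4 CPM in R183W vehicle libraries. For ERRFI1 the log2 difference was -1.18 ± 0.22 (adjusted p = 0.00291; 0.00187 without library 3). Genes of ERK feedback had 2 of 19 higher and 4 lower (1 and 5 without library 3; none higher without WT WM1119 library 2 or vehicle library 1 or 3 of R183W cells, and 1 higher without WT WM1119 library 1 or vehicle library 2 of R183W cells). Among them PHLDA1, a pleckstrin homology protein, had 96.9, 81.4 and 45.4 CPM in WT WM1119 libraries, 166 and 172 CPM in R183W WM1119 libraries, 173, 222 and 226 CPM in WT vehicle libraries and 193, 218 and 222 CPM in R183W vehicle libraries. For PHLDA1 the log2 difference was -1.49 ± 0.21 (adjusted p = 0.000323; -1.25 without library 3).

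Secreted factors known from senescent cells had 3 of 21 higher and 7 lower (3 and 8 without library 3). The number higher was 1 without WT WM1119 library 2 or vehicle library 2 or 3 of R183W cells, and the number lower was 4 without R183W vehicle library 1 or 3. IL11, a cytokine of the interleukin-6 family, had 5.05, 2.57 and 1.24 CPM in WT WM1119 libraries, 1.44 and 0.906 CPM in R183W WM1119 libraries, 9.37, 12.8 and 14.3 CPM in WT vehicle libraries and 18.8, 21.6 and 26.6 CPM in R183W vehicle libraries. Inhibited libraries were low in either genotype. For IL11 the log2 difference was -2.80 ± 0.36 (adjusted p = 0.000153; -2.53 without library 3). PLAUR, the urokinase receptor, had 31.6, 25.2 and 10.7 CPM in WT WM1119 libraries and 80.7, 77.5 and 70.2 CPM in R183W vehicle libraries, lower without overlap. For PLAUR the log2 difference was -1.71 ± 0.29 (adjusted p = 0.00121; -1.43 without library 3). TGF-beta, activin and BMP ligands and targets had 3 of 19 higher and 5 lower (2 and 5 of 18 without library 3; 3 lower without R183W vehicle library 2), INHBA being the largest on the high side. BMP2, a bone morphogenetic protein, was the largest on the low side. It had 0.22, 0.257 and 1.24 CPM in WT WM1119 libraries, 3.84 and 6.04 CPM in R183W WM1119 libraries, 3.79, 3.05 and 4.70 CPM in WT vehicle libraries and 4.95, 5.56 and 6.49 CPM in R183W vehicle libraries, so WT WM1119 libraries alone were low. For BMP2 the log2 difference was -3.49 ± 0.58 (adjusted p = 0.0011; -4.44 without library 3). TGFBI, a matrix protein induced by TGF-beta, had 69.2, 67.8 and 59.9 CPM in WT WM1119 libraries and 178, 171 and 143 CPM in R183W vehicle libraries. For TGFBI the log2 difference was -1.32 ± 0.14 (adjusted p = 2.89e-05; -1.27 without library 3).

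Hypoxia and glycolysis genes had 12 of 30 lower, 2 higher and a median of -0.49 (15 lower, 2 higher and a median of -0.49 without library 3; 1 higher when WT WM1119 library 2 or any R183W vehicle library was left out). ADM, the peptide hormone adrenomedullin, had 4.17, 5.91 and 11.6 CPM in WT WM1119 libraries, 4.80 and 6.04 CPM in R183W WM1119 libraries, 14.9, 8.77 and 7.34 CPM in WT vehicle libraries and 35.8, 24.6 and 36.5 CPM in R183W vehicle libraries. R183W vehicle libraries stood above the 3 other groups. For ADM the log2 difference was -2.24 ± 0.35 (adjusted p = 0.000754; -2.70 without library 3). NDRG1, a hypoxia-induced stress gene, was low with the inhibitor in either genotype: 53.2, 47.3 and 20.2 CPM in WT WM1119 libraries, 33.4 and 33.8 CPM in R183W WM1119 libraries, 129.6, 149 and 168 CPM in WT vehicle libraries and 134, 140.4 and 145 CPM in R183W vehicle libraries. For NDRG1 the log2 difference was -1.76 ± 0.24 (adjusted p = 0.00024; -1.48 without library 3). EGLN3, a prolyl hydroxylase that marks hypoxia-inducible factor, had 2.86, 4.11 and 0 CPM in WT WM1119 libraries and 11.5, 13.7 and 14.4 CPM in R183W vehicle libraries. For EGLN3 the log2 difference was -2.36 ± 0.50 (adjusted p = 0.00573; -1.93 without library 3). The glycolytic enzyme gene TPI1, in contrast, lay within 2-fold, with 381, 524 and 735 CPM in WT WM1119 libraries, 393, 328 and 259.7 CPM in WT vehicle libraries and 768, 553 and 507 CPM in R183W vehicle libraries, a log2 difference of -0.16 from R183W vehicle cells (-0.44 without library 3).

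Where cholesterol genes were called, most were lower in WT WM1119 cells. Of 24 tested, 6 were lower in WT WM1119 cells and 2 higher, with a median of -0.31; without library 3, 10 were lower and 4 higher. The number higher was 1 when WT WM1119 library 1 or 2 or any R183W vehicle library was left out. WT vehicle against R183W vehicle cells had a median of -0.57 with 8 lower and 2 higher. There the number higher was 0 without R183W vehicle library 2 and 1 without any other library except WT vehicle library 1 and WT WM1119 libraries 1 and 3. Between WT WM1119 and WT vehicle cells edgeR called none of the 24 (5 higher and 0 lower at an unadjusted p under 0.05, 1 higher by DESeq2, 0 by limma-voom), and 3 were higher without WT WM1119 library 1. FDPS, which makes farnesyl diphosphate, had 71.4, 88.4 and 94.5 CPM in WT WM1119 libraries, 155 and 171 CPM in R183W WM1119 libraries, 73.4, 77.4 and 73.95 CPM in WT vehicle libraries and 171, 145 and 169 CPM in R183W vehicle libraries. WT libraries were low and R183W libraries high with either treatment. For FDPS the log2 difference was -0.94 ± 0.14 (adjusted p = 0.000376; -1.03 without library 3). TM7SF2, a sterol reductase gene, was higher, at 129.8, 166 and 178 CPM in WT WM1119 libraries against 82.003, 69.98 and 77.5 CPM in R183W vehicle libraries. For TM7SF2 the log2 difference was 1.04 ± 0.15 (adjusted p = 0.000431; 0.94 without library 3).

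NRF2 targets, antioxidant and detoxification genes, had 6 of 22 higher and 1 lower, with a median of 0.05 (6 and 1 without library 3). AKR1C3, an aldo-keto reductase with close paralogs that make its estimated counts less certain, had 62.4, 76.03 and 68.1 CPM in WT WM1119 libraries, 112 and 101 CPM in R183W WM1119 libraries, 31.7, 32.4 and 30.7 CPM in WT vehicle libraries and 26.7, 24.4 and 28.6 CPM in R183W vehicle libraries. Inhibited libraries were high in either genotype. For AKR1C3 the log2 difference was 1.37 ± 0.14 (adjusted p = 2.03e-05; 1.37 without library 3). TXNRD1, thioredoxin reductase, was lowest in R183W vehicle libraries, at 191, 138 and 182 CPM in WT WM1119 libraries, 127 and 134 CPM in R183W WM1119 libraries, 251, 206 and 212 CPM in WT vehicle libraries and 84.3, 84.96 and 72.998 CPM in R183W vehicle libraries. For TXNRD1 the log2 difference was 1.08 ± 0.15 (adjusted p = 0.00024; 1.02 without library 3).

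**Figure D5:**
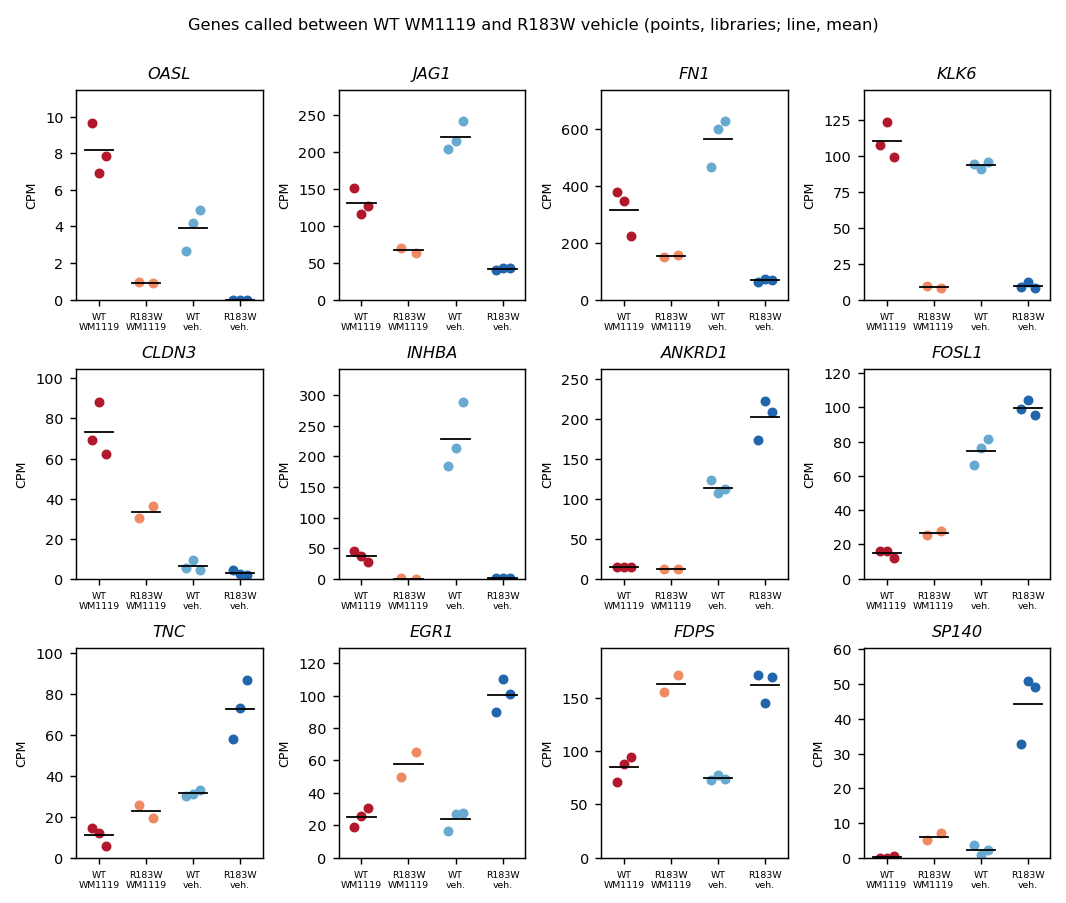
CPM (vertical axis, from 0) of 12 genes called between WT WM1119 and R183W vehicle cells, by group; points are libraries and lines are means. OASL, JAG1, FN1, KLK6, CLDN3 and INHBA are higher and ANKRD1, FOSL1, TNC, EGR1, FDPS and SP140 lower in WT WM1119 than in R183W vehicle libraries, with no overlap between these groups.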

How the data were processed

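The authors deposited 1 table of whole numbers per gene for all 11 libraries, taken as rounded expected counts because RSEM is among the tools named; the columns it holds of other samples number 0. STAR, RSEM and the build hg19 are named, per the submitters' processing notes, and their versions are not given in the sources used here. Per the labels' protocols, RNA was taken up with RNeasy columns, treated with DNase I and made into libraries by ScriptSeq Complete Gold; the labels' molecule field has polyA RNA. Use of strand in counting is not stated, so overlapping and antisense genes are uncertain. Totals ran from 2609922 to 6065149 counts per library. Gene names came from GENCODE release 29 for 52301 of 57736 IDs, and unmatched IDs held 0.89% of counts.

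From these counts, edgeR 4.0.16 (R 4.3.3) fitted 4 group means to all 11 libraries, which share 1 estimate of each gene's spread, with filterByExpr, TMM scaling and the quasi-likelihood test, two-sided. Adjusted p-values are Benjamini-Hochberg values over all genes tested, and genes under 0.05 are called. SE and the 95% intervals (not adjusted for the number of genes) come from the same fit, and within 2-fold means an interval between -1 and 1 on the log2 scale. The biological coefficient of variation was 19.6%. The steps were tested on simulated data in which all libraries shared the spread of a gene and no library stood apart. That test therefore does not cover the effect of a library such as WT WM1119 library 3 on calls and intervals. Where a group had no count, folds are bounds against 3 counts over the group; exact counting intervals cover counting error only. Library distances used log2 CPM with a prior count of 2.

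Genes named were, in each direction, the 12 largest differences called with and without WT WM1119 library 3, a mean of 2 CPM or more on the higher side and libraries that did not overlap, passing over IDs without a symbol and names of clones, loci, open reading frames, pseudogenes, antisense and small RNAs, some of which had larger differences. From each list the rule takes up to 4 called members and up to 2 near ones, and not all of these are described. IFI44L, BST2 and ISG15 were added after their values were seen, as were the names of members not called in the interferon, YAP/TEAD and KAT6 lists. The members, the 43 gene lists and the 6 marker lists were chosen with earlier results of these data known. Alternatives were DESeq2's size factors, no filter, a stricter filter (30 counts), DESeq2 1.42.0, limma-voom (limma 3.58.1), a fit of only the 2 groups, a replicate block and each library left out. Replicates within each group differed by more than sampling noise.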

Additional observations from a re-analysis of the deposited data

How the results depend on the processing

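The 2082 genes called between WT WM1119 and R183W vehicle cells numbered 2098 with DESeq2's size factors, 2495 with no filter, 1927 with a stricter filter, 2404 by DESeq2, 2100 by limma-voom and 1334 in a fit of only these 2 groups, which has fewer samples. Leaving out single libraries gave 1280 to 3026. The genes within 2-fold, 7375, ranged from 6459 to 7397 on leaving out libraries. The 1817 calls of WT vehicle against R183W vehicle cells were 2929 in a fit of only those 2 groups and 965 to 3151 on leaving out libraries. The 680 calls of WT WM1119 against WT vehicle cells were 1287 with no filter, 1115 by DESeq2, 139 in a fit of only those 2 groups and 247 to 1392 on leaving out libraries. The cause of these changes was not tested.

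Leaving out libraries gave 17 to 20 interferon-stimulated genes higher, 9 to 15 YAP/TEAD targets lower, 2 to 5 Notch genes higher, 5 to 10 cholesterol genes lower, 4 to 6 EGF receptor family genes lower, 9 to 15 hypoxia genes lower and 25 to 36 replication genes within 2-fold. The 6 Notch genes were 2 in a fit of only the 2 groups, and the cause was not tested. The median distance of WT WM1119 from R183W vehicle libraries was 1.07 with a prior count of 0.5 and 0.5 over the 2000 highest genes. From R183W WM1119 libraries it was 1.15 with a prior count of 0.5 and 0.48 over the 2000 highest genes, and from WT vehicle libraries 0.386 over the 2000 highest genes, so WT vehicle libraries stayed the nearest there. The naming rule and the genes added to it gave 214 genes tested, not all of them described here. Of these, 143 kept direction and side of the threshold under every alternative that tested them, 71 changed side under at least 1, and 0 changed direction. DESeq2 called 6 more and 1 fewer, limma-voom 2 more and 5 fewer, and the fit of only the 2 groups 41 fewer.

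The replicate numbers were not taken to pair the samples. Of 15 pairs of libraries with the same number in different groups, deviations from group means correlated between -0.391 and 0.137, with 2 over 0.1. Pairs with different numbers correlated between -0.163 and 0.405, the highest being WT WM1119 library 3 with WT vehicle library 1. Only 2 of 11 libraries correlated best with a library of their own number. With the number as a replicate block, the calls were 1474, of which 1468 were among the 2082, 1189 for WT vehicle against R183W vehicle cells, 287 for WT WM1119 against WT vehicle cells and 2 for higher Notch genes. Under the block 34 of the 214 genes that the rule took or that were added lost their call and 1 gained it.

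Depth limits low genes most. WT WM1119 library 3 holds 2609922 counts, so genes at a few CPM rest on few counts there, and 4984 genes were neither called nor held within 2-fold. The R183W WM1119 group has 2 libraries, against 3 in the other groups.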

Other observations

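Lists not described above held further genes that stood apart with every library left out in turn. In the BCL2 family, which sets the threshold for apoptosis, 2 of 15 tested were higher and 1 lower in WT WM1119 cells. The number higher was 1 without WT WM1119 library 2 or vehicle library 1 or 3 of R183W cells, and 2 were lower without WT WM1119 library 1. HRK, a pro-apoptotic BH3-only member, had 30.3, 33.1 and 41.3 CPM in WT WM1119 libraries, 9.84 and 8.15 CPM in R183W WM1119 libraries, 29.7, 36.4 and 29.2 CPM in WT vehicle libraries and 9.40, 9.20 and 8.31 CPM in R183W vehicle libraries. WT libraries were high with either treatment. For HRK the log2 difference was 1.95 ± 0.20 (adjusted p = 1.71e-05; 1.81 without library 3). BCL2L1, which encodes the survival protein BCL-XL, had 8.57, 12.1 and 17.8 CPM in WT WM1119 libraries, 13.9 and 9.36 CPM in R183W WM1119 libraries, 21.4, 19.8 and 16.9 CPM in WT vehicle libraries and 38.6, 36.4 and 40.1 CPM in R183W vehicle libraries. R183W vehicle libraries were the highest. For BCL2L1 the log2 difference was -1.63 ± 0.25 (adjusted p = 0.000516; -1.91 without library 3).

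Endometrial lineage factors had 2 of 10 higher and 1 lower, with 1 higher without WT WM1119 library 1 or 2 or vehicle library 1 or 3 of R183W cells, and 2 lower without WT WM1119 library 3. WT1, the Wilms tumour transcription factor, had 40.4, 44.2 and 31.4 CPM in WT WM1119 libraries, 17.3 and 8.15 CPM in R183W WM1119 libraries, 17.2, 22.7 and 25.8 CPM in WT vehicle libraries and 5.94, 6.85 and 8.92 CPM in R183W vehicle libraries. WT WM1119 libraries were the highest of the 11. For WT1 the log2 difference was 2.43 ± 0.28 (adjusted p = 5.89e-05; 2.54 without library 3). FOXA2, a forkhead factor of endometrial glands, had 57.1, 59.6 and 42.9 CPM in WT WM1119 libraries, 41.1, 40.2 and 39.9 CPM in WT vehicle libraries and 127, 145 and 158 CPM in R183W vehicle libraries. For FOXA2 the log2 difference was -1.42 ± 0.15 (adjusted p = 1.94e-05; -1.30 without library 3). Among WNT ligands, inhibitors and targets, 2 of 15 were higher and 2 lower. The number higher was 1 when WT WM1119 library 1, WT vehicle library 1 or 2 or R183W vehicle library 2 or 3 was left out, and 0 without R183W vehicle library 1, and 5 were lower without WT WM1119 library 3. SFRP1, a secreted WNT antagonist, had 5.49, 4.88 and 5.78 CPM in WT WM1119 libraries, 48.2 and 53.2 CPM in R183W WM1119 libraries, 3.12, 5.34 and 3.58 CPM in WT vehicle libraries and 29.5, 32.1 and 24.1 CPM in R183W vehicle libraries, low in both WT groups. For SFRP1 the log2 difference was -2.41 ± 0.23 (adjusted p = 1.15e-05; -2.46 without library 3). WNT2B, a ligand, had 100.2, 90.4 and 103 CPM in WT WM1119 libraries, 35.99 and 40.2 CPM in R183W WM1119 libraries, 219.8, 224 and 245 CPM in WT vehicle libraries and 216, 202 and 237 CPM in R183W vehicle libraries, low in both inhibited groups. For WNT2B the log2 difference was -1.16 ± 0.12 (adjusted p = 2.46e-05; -1.20 without library 3).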
